A study of Mus musculus with 30 samples.

Results

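Interferon-stimulated genes were followed as one group across all 30 stromal RNA libraries of this series. The group was chosen by name: 39 genes known to be induced by interferon were listed, and their rows were looked up in the deposited count table. A row was found for 38 of the 39, out of 43346 gene rows in all. Gbp5 was the gene with no row and is not analysed here. The members were not chosen for their behaviour in one comparison, but the list was drawn up with earlier results of these data known.

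The libraries hold stromal cells from mouse bone, lung or brain that carried tumours of human breast circulating tumour cell (CTC) lines, and from mice without tumours. In exposed mice, 100000 CTCs carrying GFP and luciferase had been put into the left ventricle of the heart of female NSG mice aged 6 to 8 weeks that carried estrogen pellets. Lesions were dissociated, cells without GFP were sorted, and RNA came from 50000 sorted cells. Exposed bone comprised 2 libraries with the line Brx07, 4 with Brx50 and 7 with Brx68, against 3 bone controls. Exposed lung comprised 2 with Brx07, 1 with Brx42, 3 with Brx50 and 1 with Brx68, against 2 lung controls. Exposed brain comprised 3 with Brx50, against 2 brain controls. The labels describe every library as stromal cells and name no marker used to select a stromal cell type, so a library can hold any mouse cell without GFP. The sources used here give neither the age of the control mice nor whether they carried estrogen pellets. Libraries are named below by tissue, line and replicate number.

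Interferons are secreted proteins that warn neighbouring cells of infection or damage. Type I interferons (the interferon alpha genes and Ifnb1) bind the receptor of Ifnar1 and Ifnar2, and the kinases Jak1 and Tyk2 then switch on a complex that includes Stat2 and Irf9 and binds interferon-stimulated response elements in front of its target genes, and Irf7 and Irf1 bind related sequences. Interferon gamma, made mainly by T cells and natural killer cells, uses another receptor and acts through a different element. NSG mice lack mature T cells, B cells and natural killer cells. The products of the induced genes sense viral RNA, block its translation, degrade it or tag proteins, and several are also raised at rest in macrophages and other myeloid cells.

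The sequences below show the elements in front of members that are described in every tissue. Promoter windows from RefSeq (build GRCm38.p6), running from 250 bases before to 50 bases after the annotated start, were available for 28 of the 38 members. The core of the interferon-stimulated response element, a pair of GAAA repeats with any 2 bases between them, was searched on both strands, so that on the printed strand a match reads as GAAA repeats or as TTTC repeats. At least 1 match was present in 14 of these 28 members (50%), against 3.99% of the 27025 gene symbols in the same table. The letters TTCNNNGAA, the palindrome of the gamma-activated element, were present in 7 of the 28 (25%), against 9.55% of all symbols, and 3 members held both: Bst2, Eif2ak2 and Oas1a. Matches of one motif can overlap each other. A match is a description of the letters in this window and not a measured binding site. Stretches of 5 members follow, each upstream of the RefSeq start, 5′ to 3′ on the strand of the gene, with every base of a match to the paired repeats in capitals. They are shown because these genes are followed library by library below.
Isg15 (chr4:156200850-156200921, minus strand): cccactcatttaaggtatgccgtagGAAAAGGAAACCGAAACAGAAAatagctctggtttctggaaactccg
Ifit3 (chr19:34583348-34583441, plus strand): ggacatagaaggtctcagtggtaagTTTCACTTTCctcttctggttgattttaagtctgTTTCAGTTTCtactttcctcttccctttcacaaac
Bst2 (chr8:71537562-71537627, minus strand): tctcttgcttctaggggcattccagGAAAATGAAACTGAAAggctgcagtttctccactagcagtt
Rsad2 (chr12:26456538-26456597, minus strand): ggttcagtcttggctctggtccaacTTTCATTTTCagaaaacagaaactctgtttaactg
Gbp2 (chr3:142620579-142620638, plus strand): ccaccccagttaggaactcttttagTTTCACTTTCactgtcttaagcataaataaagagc
Isg15 held 3 overlapping matches, the first beginning 78 bases before the start, and Bst2 held 2 overlapping matches. Ifit3 held 2 separate ones, which began 156 and 122 bases before the start. Rsad2 and Gbp2 held 1 each, beginning 120 and 59 bases before the start. For Gbp2 the start in GENCODE M21 (142620602) lies inside the printed stretch and before its match. The other members followed in every tissue are Irf7 (chr7:141262706-141266481), Ifih1 (chr2:62595798-62646255) and Oasl2 (chr5:114896936-114912234), given as gene spans on GRCm38. Ifih1 held a match after its start, and no match lay in the windows of Irf7 and Oasl2.

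Total counts ran from 4289012 to 15646947 per library, and all values below are CPM, the counts of a gene scaled to the whole count of its library. The labels do not tie each library to its own mouse, so a p-value speaks for the spread among these samples, some of it possibly technical. In bulk RNA, fewer cells of a type and less RNA per cell cannot be told apart. The control tissues held transcripts of their labels: alveolar and airway markers summed to 1958 and 2497 CPM in lung controls, oligodendrocyte markers to 9195 and 16560 CPM in brain controls and osteoblast markers to 226 to 329 CPM in bone controls. Lymphocyte markers (6 genes) summed to 34.8 CPM at most in any library. A few libraries stood apart for the members and are named before any comparison. Lung Brx50 replicate 3 held 14664 CPM in the 38 members together, against 2872 to 4237 CPM in the 8 other lung libraries. Bone Brx07 replicate 2, from skull per its title, held 5972 CPM, against 1805 to 4326 CPM in the 15 other bone libraries. Brain Brx50 replicate 1 held 596 CPM, against 1493 and 1726 CPM in the other two exposed brain libraries. It was the library with the fewest counts, and 4 members (Oas1a, Oas3, Gbp3 and Cmpk2) had 0 counts in it, which allows up to 0.699 CPM each from counting error alone. It also had counts in fewer genes, 16344 against 19139 to 24146 in the other brain libraries. The part of this low detection in its member levels was not tested. For each of these libraries, the median member change of its tissue is given with and without it.

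**Figure D1:**
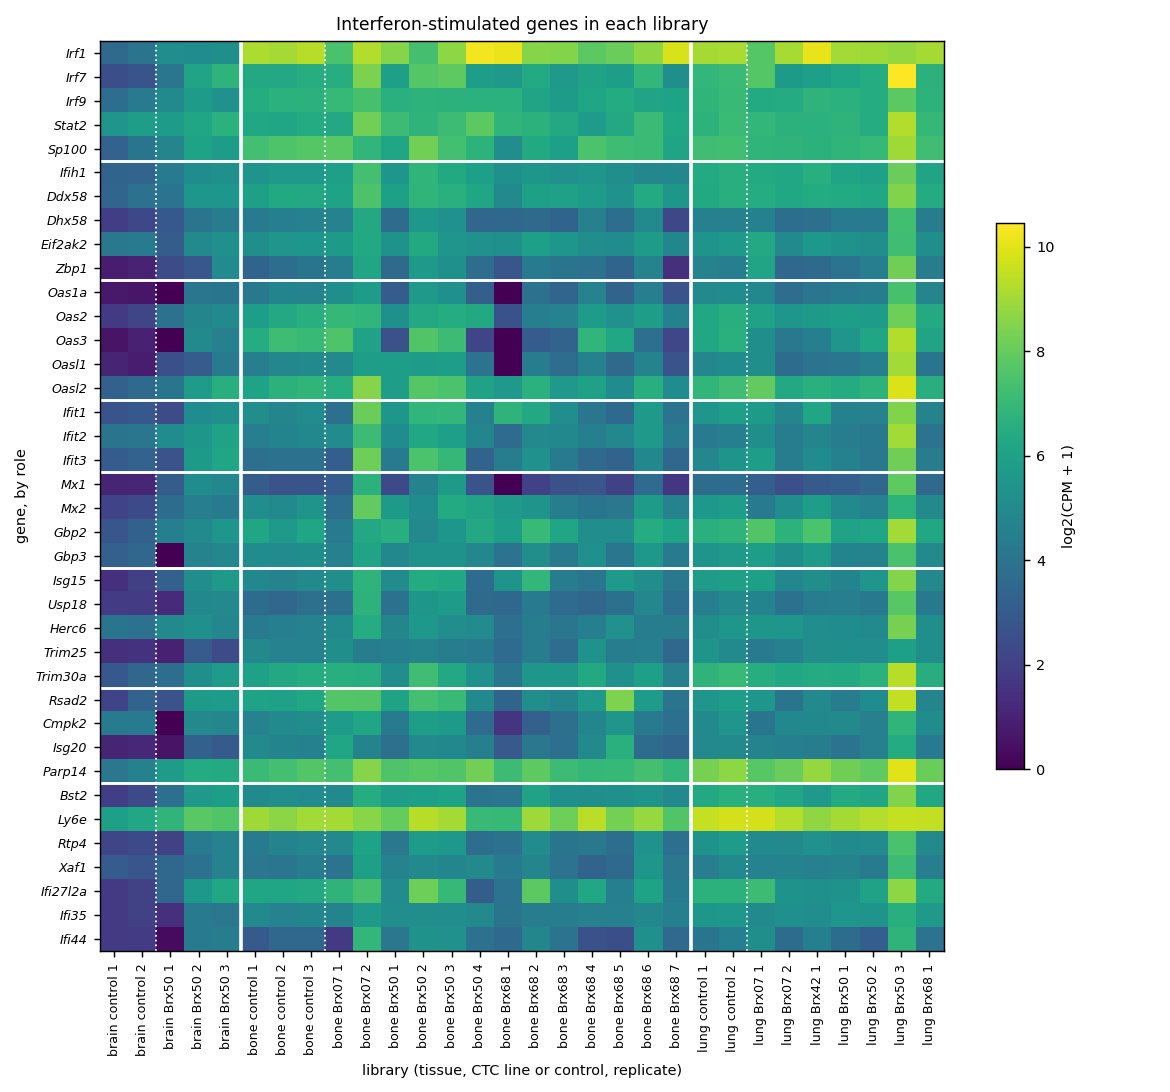
Heat map of log2(CPM + 1) for the 38 members (rows, grouped by role) in the 30 libraries (columns, controls first within each tissue). The columns of brain controls are dark for most genes, and the column of lung Brx50 replicate 3 is bright across all role groups.

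In tumour-free tissue the members were set at very different levels. All 38 were higher in bone controls than in brain controls, with a median log2 difference of 3.23, and all 38 were higher in lung controls than in brain controls, by a median of 3.80. Each passed the quasi-likelihood test of edgeR at an adjusted p of 0.05 over all 18859 genes tested. The tissues differed widely in general: 37.0% of all genes were called higher in bone than in brain and 34.6% higher in lung than in brain, with median changes over all genes of -0.04 and -0.06. Both counts use the same 2 brain controls. In the brain controls macrophage and monocyte markers (10 genes) summed to 425 and 686 CPM, against 4571 to 5171 CPM in bone and 6429 and 8350 CPM in lung controls. Their part in these differences was not tested.

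The 2-5A synthetases, which make the short RNA-like messenger that switches on RNase L, showed the widest gaps from brain controls. Their median log2 difference from brain was 4.94 for bone and 5.15 for lung, and that of bone from lung was -0.21. Oas3, the largest synthetase of the family, stood at 89.0, 149 and 135 CPM in bone controls, at 75.4 and 97.7 CPM in lung controls and at 0.478 and 0.933 CPM in brain controls. Its fitted difference from brain was 7.54 ± 0.40 (SE) on the log2 scale for bone and 7.04 ± 0.41 for lung. Oas1a stood at 17.8 to 25.1 CPM in bone controls, 29.3 and 32.8 CPM in lung controls and 0.638 and 0.533 CPM in brain controls, with fitted differences of 5.38 ± 0.33 and 5.88 ± 0.33. Oasl1, a synthetase-like protein without catalytic activity, was higher in bone than in brain by 4.94 ± 0.30. Irf1, a transcription factor induced by both interferon types, was higher than in brain by 5.59 ± 0.19 in bone and 5.52 ± 0.19 in lung, with 525 to 649.5 CPM in bone controls and 11.3 and 15.2 CPM in brain controls. Ifi27l2a, a small induced membrane protein, was higher in lung than in brain by 5.41 ± 0.17. The smallest member differences from brain were 0.69 in Herc6 for bone and 0.55 in Ifit2 for lung.

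Bone and lung controls lay closer together. Of the 38 members, 24 were called lower in bone than in lung (22.3% of all genes were called lower) and 0 were called higher (22.5% of all genes). The median over the members was -0.58, against 0.00 over all genes. Bst2, or tetherin, which holds budding virus at the cell surface, stood at 30.3, 33.9 and 31.8 CPM in bone and at 77.5 and 99.1 CPM in lung, a fitted difference of -1.49 ± 0.14 (edgeR adjusted p = 2.55e-06). Ifit3 followed with -1.33 ± 0.17, Parp14, an ADP-ribosyltransferase, with -1.16 ± 0.17, and Usp18, which strips ISG15 from proteins and dampens the receptor, with -1.13 ± 0.18. By role, 5 of 5 genes of ISG15 conjugation and ubiquitin ligases and 7 of 7 membrane and other induced proteins were called lower in bone. Of the 2-5A synthetases 1 of 5 was called. Every bone control was above both lung controls in 2 members, Sp100 and Rsad2 (33.5% of all genes). Every one was below both in 27 members (30.9% of all genes).

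Read per kilobase of exon, which allows genes to be compared with each other, the same few genes led in bone and lung controls. Ifi27l2a had the highest level, at 159 ± 8.54 CPM per kb (SD, n = 3) in bone and 226 ± 0.519 (n = 2) in lung. Irf1 and Ly6e followed in both tissues, in opposite order, with 146 ± 15.9 and 124 ± 15.7 CPM per kb in bone and 136 ± 7.46 and 214 ± 27.0 in lung. In bone the ranges of Irf1 and Ly6e overlapped at 132 to 163 and 105 to 134 CPM per kb. Isg15 and Bst2 came next in bone with 37.0 ± 4.39 and 35.5 ± 1.97, which also overlapped. Ifi44 and Mx1 were the lowest in both tissues, at 1.49 ± 0.369 and 1.62 ± 0.307 CPM per kb in bone. In brain controls Ly6e led with 17.8 ± 3.14 CPM per kb, followed by Stat2 with 8.48 ± 1.72, and Oas3 was last with 0.0998 ± 0.0454.

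**Figure D2:**
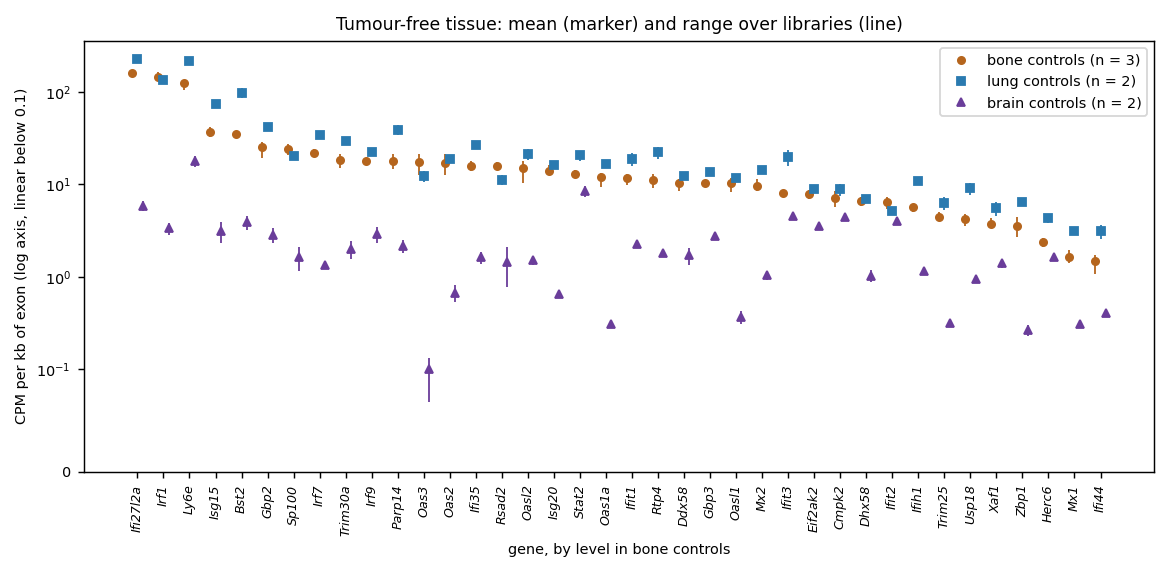
Level of each member in tumour-free tissue, in CPM per kilobase of exon on a logarithmic axis that is linear below 0.1, as mean (marker) and range over libraries (line), ordered by bone controls. Brain controls (triangles) lie below bone and lung controls for every gene, and lung lies above bone for most of the genes.

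The brain comparison asked how the members differed between stroma beside Brx50 tumours and tumour-free brain. The fitted change was above 0 for 37 of 38 members and for 51.6% of all genes, with a median of 2.02 on the log2 scale against 0.03 over all 16734 genes. None of the members passed the quasi-likelihood test after adjustment over all genes (smallest adjusted p = 0.210). A single gene of the whole table was called higher, which is 0.00598% of those tested. At an unadjusted p under 0.05, the test gave 27 of 38 members and 13.6% of all genes. The counts of members called by other tools were larger: 25 with limma-voom (4.68% of all genes called higher), 18 with DESeq2 (3.69%) and 7 with edgeR without a filter on low counts (0.941%), all of them higher in exposed brain.

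The transcription factor Irf7, which carries the positive loop of interferon production, stood at 16.1, 68.1 and 111 CPM in exposed replicates 1, 2 and 3 and at 4.62 and 5.60 CPM in the controls. Every exposed library was above both controls, and the fitted change was 3.61 ± 0.82 (SE, edgeR adjusted p = 0.248). Ifih1, the sensor MDA5 of long double-stranded RNA, stood at 18.9, 33.1 and 37.5 CPM against 9.25 and 9.59 CPM. Every exposed library was again above both controls, with a fitted change of 1.61 ± 0.39 (edgeR adjusted p = 0.248). Oasl2, a synthetase-like protein, stood at 15.6, 54.6 and 96.3 CPM against 8.45 and 10.8 CPM, a fitted change of 2.47 ± 0.73.

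Oas3 had the largest fitted change among members with a mean of at least 10 CPM, at 4.53 ± 1.78. It was at 0 counts in replicate 1 and at 30.5 and 22.7 CPM in replicates 2 and 3, against 0.478 and 0.933 CPM in controls, so the groups overlapped. Mx1, a dynamin-like GTPase that traps viral nucleoprotein and is disrupted in most laboratory mouse strains, stood at 7.46, 33.3 and 27.4 CPM against 1.12 and 1.20 CPM. Its fitted change was 4.21 ± 0.76, with no overlap. Gbp2, a guanylate-binding GTPase that coats the vacuoles of microbes, stood at 21.7, 29.9 and 44.5 CPM against 5.90 and 8.39 CPM, a change of 2.11 ± 0.43 with no overlap.

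Ifit3, a member of the IFIT family that holds foreign RNA away from the ribosome, stood at 5.36, 50.4 and 71.0 CPM against 7.34 and 8.66 CPM. Replicate 1 was below both controls and the other exposed libraries were far above them. Rsad2, or viperin, which makes a chain-ending nucleotide, stood at 5.36, 50.3 and 51.8 CPM against 3.35 and 9.06 CPM, with replicate 1 between the controls. The fitted changes were 2.34 ± 0.95 for Ifit3 and 2.46 ± 0.96 for Rsad2. Isg15, the ubiquitin-like protein that is coupled to other proteins, stood at 8.16, 35.0 and 48.9 CPM against 1.75 and 2.93 CPM. Bst2 stood at 13.3, 48.3 and 57.2 CPM against 2.87 and 4.13 CPM, and Ifi27l2a at 9.79, 46.3 and 74.6 CPM against 2.39 and 3.06 CPM. These 3 genes were above both controls in every exposed library, with fitted changes of 3.64 ± 0.83, 3.43 ± 0.69 and 3.93 ± 0.89.

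By role, the median fitted change in brain was 3.34 for the 5 synthetases, 2.13 for the 4 GTPases, 1.99 for the 3 IFIT genes, 1.98 for ISG15 conjugation and ubiquitin ligases, 2.06 for membrane and other proteins, 1.61 for the RNA sensors and 1.34 for the transcription factors. Cmpk2, a mitochondrial nucleotide kinase whose gene lies beside Rsad2, was the member fitted lower, at -0.03. It stood at 0, 29.4 and 27.4 CPM against 19.0 and 18.1 CPM, so 2 exposed libraries were above and 1 below the controls.

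All 3 exposed brain libraries were above both controls in 23 members, and in 19.9% of all genes. No member had all exposed libraries below the controls. The other 15 members overlapped, and in each of them replicates 2 and 3 were above both controls, since all 38 members were higher there (34.0% of all genes). Without replicate 1 the test called 11 members, among 69 of 16474 genes called higher (0.419%), and the median change was 2.38. Irf7 then had an adjusted p of 0.0381, Isg15 of 0.0397, Bst2 of 0.0348 and Oas3 of 0.0348 with edgeR, and Gbp2, at 0.0648, was not called. Replicate 1 was named for its low member level, so leaving it out favours the members and these calls are no independent test. Of the 5 brain libraries left out in turn, 1 changed the number called. Exposed brain was also richer in myeloid transcripts: the 10 macrophage and monocyte markers summed to 1602 to 3694 CPM against 425 and 686 CPM, and at least 9 of 10 were above both controls in each library. The 5 microglia markers summed to 625 to 2277 CPM against 469 and 613 CPM. Replicate 1, the lowest in the members, had 2432 CPM of macrophage markers and 1769 CPM of microglia markers, and replicate 3, the highest, had 1602 and 625 CPM. Markers of the pituitary (3 genes) summed to 662 to 1995 CPM in exposed brain and to 9.59 and 9.89 CPM in controls. Fibroblast markers (6 genes) stood at 183, 1373 and 1806 CPM in replicates 1, 2 and 3 against 125 and 135 CPM in controls, so they were lowest in the replicate that was lowest in the members. Neutrophil markers stood at 88.1, 3947 and 173 CPM against 34.0 and 48.6 CPM, and epithelial markers at 16.6, 83.1 and 47.7 CPM against 5.26 and 10.7 CPM, both also lowest in replicate 1. Oligodendrocyte markers summed to 19109 to 32218 CPM against 9195 and 16560 CPM, and neuron markers to 514 to 1870 CPM against 2238 and 2908 CPM. The part of these cell types in the result was not tested.

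**Figure D3:**
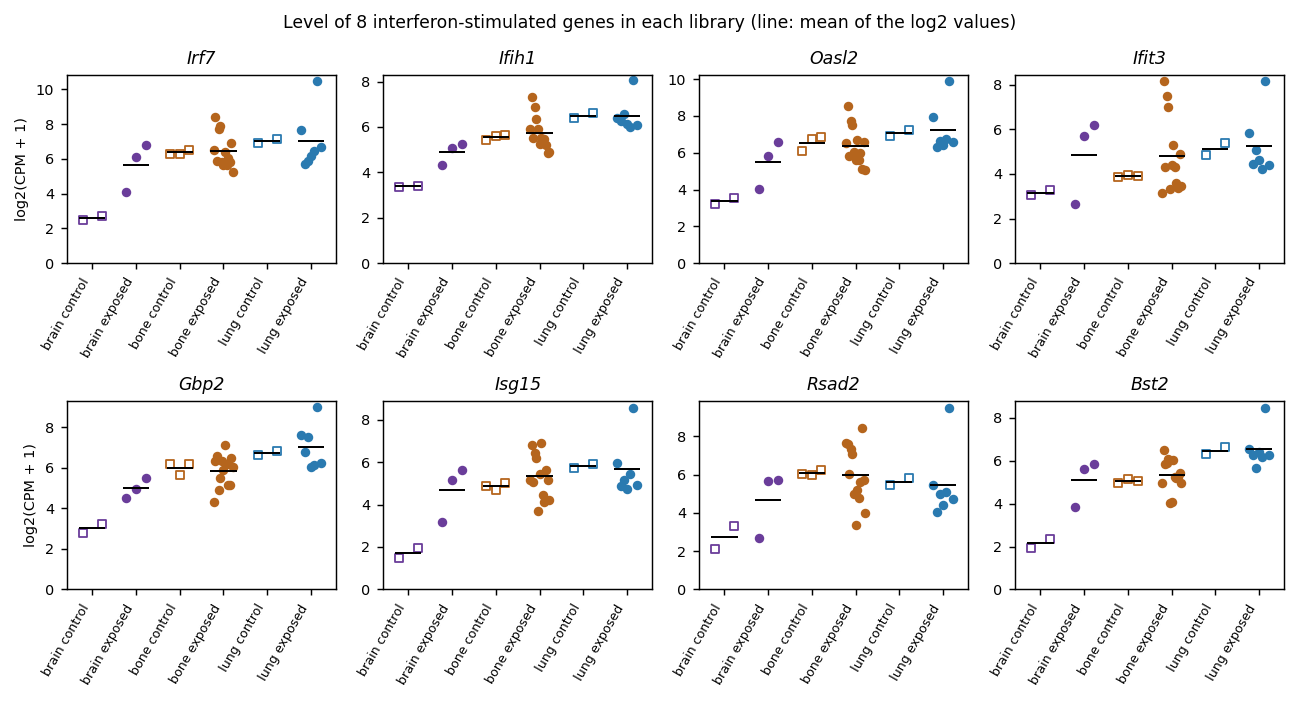
Level of 8 members in each library as log2(CPM + 1), with open squares for controls and filled circles for exposed libraries by tissue; the line is the mean of the log2 values. In brain the control squares lie near the bottom and 1 exposed circle lies below the other 2, while in lung 1 circle (Brx50 replicate 3) stands above all others.

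In bone the exposed libraries were compared with 3 controls, all lines together. The members lay on both sides of the controls: 24 of 38 were fitted higher (57.2% of all genes), with a median change of 0.18 against 0.08 over all genes. edgeR called 0 members, as it called 0 of all 18278 genes (0.0%), and 0 members had an unadjusted p under 0.05 (2.51% of all genes). limma-voom called 2 members, both lower (12.1% of all genes were called lower), and DESeq2 called 0. All 38 members overlapped between exposed and control bone. Of all genes, 0.0328% had every exposed library above the controls and 0.202% had every one below.

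The exposed libraries differed widely among themselves. Ifit3 ran from 7.71 to 282 CPM with a median of 19.0 CPM over 13 exposed libraries, while the controls stood at 13.4, 14.4 and 14.1 CPM. The highest 3 libraries were Brx07 replicate 2 at 282 CPM, Brx50 replicate 2 at 177 CPM and Brx50 replicate 3 at 125 CPM, and the next reached 37.7 CPM. The fitted change of 1.95 ± 1.15 (edgeR adjusted p = 0.970) was the largest of any member with a mean of at least 10 CPM. Ifi44, a GTP-binding protein of little known function, ran from 2.40 to 121 CPM (median 15.0) against 6.54, 10.4 and 10.6 CPM, a fitted change of 1.44 ± 0.89. Mx1 ran from 0 to 104 CPM (median 5.37) against 7.47, 5.36 and 5.55 CPM, a change of 1.38 ± 1.28. Usp18 ran from 9.91 to 107 CPM (median 13.6) against 11.9, 9.98 and 13.3 CPM, a change of 1.12 ± 0.69. In Ifi44, Mx1 and Usp18 too, the same 3 libraries held the highest values. Without Brx07 replicate 2 the fitted changes were 1.52 for Ifit3, 1.06 for Ifi44, 0.74 for Mx1 and 0.82 for Usp18.

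Among the members followed in every tissue, Irf7 ran from 36.4 to 335 CPM (median 64.6) in exposed bone against 78.1, 77.6 and 90.6 CPM. Ifih1 ran from 27.6 to 159 CPM (median 44.3) against 41.3, 47.8 and 48.9 CPM, and Oasl2 from 32.7 to 371 CPM (median 64.3) against 66.7, 105 and 115 CPM. The medians of Irf7 and Oasl2 lay below all controls and that of Ifih1 among them, and the highest value of all 3 genes came from Brx07 replicate 2. Gbp2 ran from 18.5 to 137 CPM (median 65.5) against 70.8, 49.0 and 71.8 CPM, with its highest value in Brx68 replicate 2. Isg15 ran from 11.9 to 119 CPM (median 35.1) against 28.2, 24.6 and 31.2 CPM, again with Brx68 replicate 2 on top. Bst2 ran from 15.1 to 88.9 CPM (median 37.3) against 30.3, 33.9 and 31.8 CPM. The fitted changes of these 6 genes ranged from -0.0027 for Gbp2 to 0.82 for Isg15, and each standard error was at least 0.43.

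Counted library by library, Brx07 replicate 2 was above all 3 bone controls in 32 of 38 members and 52.6% of all genes, Brx50 replicate 2 in 32 members and 37.0% of genes, and Brx50 replicate 3 in 28 members and 35.8% of genes. Their median ratios to the control mean were 2.63, 1.96 and 1.73. In the 10 other exposed bone libraries between 2 and 21 members were above the controls (29.8% to 48.7% of all genes), and median ratios ran from 0.499 to 1.17. Brx68 replicate 7 had 30 members below all controls (32.9% of genes). Of all 16 bone libraries, Brx07 replicate 2 held the highest value of 26 members and of 15.7% of the genes tested. The 3 libraries also held olfactory neuron markers (3 of 3 genes above all controls in each), summing to 1115, 279 and 336 CPM, against 0.656 to 53.6 CPM in the other exposed bone libraries and 1.08 to 1.30 CPM in controls. Brx68 replicate 3, with 53.6 CPM, also had 3 of 3 olfactory genes above all controls, and only 5 members above them. Their neutrophil markers summed to 2396, 53950 and 25892 CPM, against 29915 to 39515 CPM in controls. Whether either cell source bears on the members was not tested. Without Brx07 replicate 2, the median member change in bone was 0.15.

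Not all members followed that pattern. Irf1 was lowest in Brx50 replicate 2, at 164 CPM, and highest in Brx50 replicate 4 at 1226 CPM and Brx68 replicate 1 at 1150.4 CPM, against 567, 525 and 649.5 CPM in controls. In Brx68 replicate 1, the second highest for Irf1, 25 of 38 members were below all controls (48.8% of genes) and 4 had 0 counts. Brx68 replicate 1 had counts in 14769 genes, against 16256 to 25688 in the other bone libraries. Rsad2 was highest in Brx68 replicate 5, at 345 CPM against 63.0 to 75.8 CPM in controls, and Isg20, an exonuclease that degrades RNA, was highest in the same library at 98.6 CPM against 23.4 to 29.8 CPM. That library had Ifit3 at 9.18 CPM, below all controls. Oas3 had its highest exposed values in Brx50 replicate 2 at 197 CPM, Brx07 replicate 1 at 188 CPM, Brx50 replicate 3 at 144 CPM, Brx68 replicate 4 at 115 CPM and Brx68 replicate 5 at 76.9 CPM, and the 8 others ran from 0 to 63.8 CPM. Neutrophil markers summed to 19308 to 53950 CPM in those 5 libraries and to 10.8 to 2396 CPM in the 8 others, and the part of neutrophils in the Oas3 level was not tested.

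**Figure D4:**
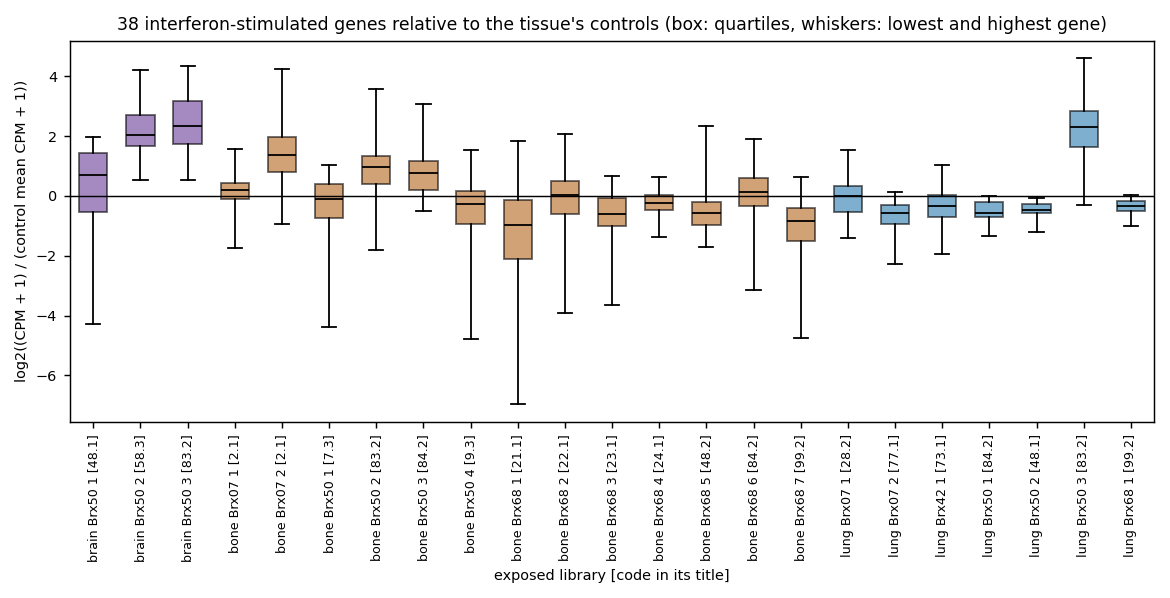
Ratio of each member to the mean of its tissue's controls in every exposed library, as log2((CPM + 1) / (control mean CPM + 1)), with boxes for the quartiles and median of 38 genes and whiskers to the lowest and highest gene; the code in each title is in brackets. The medians of all 3 brain libraries, bone Brx07 replicate 2, bone Brx50 replicates 2 and 3 and lung Brx50 replicate 3 lie above 0, and those of most other libraries lie near or below 0.

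In lung the members were higher than in controls in 1 exposed library and near or below them in the 6 others. With all libraries, 35 of 38 members were fitted higher (61.2% of all genes), by a median of 0.59 against 0.08 over all genes. Without lung Brx50 replicate 3, 5 of 38 were fitted higher and the median was -0.32. edgeR called 0 members either way, as it called 0 of 17132 genes (0.0%). With all libraries 0 members and 0.689% of all genes had an unadjusted p under 0.05. Without that library 3 members and 2.25% of all genes did. limma-voom and DESeq2 also called 0 members, with medians of -0.38 and -0.16. All 38 members overlapped between exposed and control lung, while 1.02% of genes lay above and 2.01% below the controls in every exposed library.

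Lung Brx50 replicate 3 held the highest value of all 9 lung libraries in 36 of 38 members and the highest of all 30 libraries in 33. For comparison, 24.9% of all genes tested in lung had their highest lung value there and 8.88% of the genes tested over all tissues had their highest value there. In 32 members it was at least 2 times the next highest lung library, as in 6.33% of all genes. The median member stood at 5.68 times the median of the other 8 lung libraries, against 0.838 times for the median gene.

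Irf7 stood at 1404 CPM in that library and at 51.0 to 205 CPM in the 8 others, with 119.7 and 139.8 CPM in the controls. Rsad2 stood at 714 CPM against 15.6 to 55.3 CPM, Isg15 at 369 CPM against 25.6 to 61.0 CPM, and Oasl2 at 967 CPM against 78.0 to 249 CPM. Ifit3 stood at 289 CPM against 17.4 to 55.2 CPM. Each of these was beyond every other lung library by a wide margin. The gap was smaller for Ifih1 at 268 CPM against 62.5 to 96.5 CPM, Gbp2 at 506 CPM against 64.9 to 194 CPM and Bst2 at 352 CPM against 49.7 to 99.1 CPM. Mx1 was 19.6 times the next highest lung library, Ifit2, the family member that also promotes cell death, 14.5 times, Oasl1 14.4 times and Zbp1, a sensor of left-handed nucleic acid, 4.37 times. These 4 also had the largest fitted changes of members with a mean of at least 10 CPM, at 1.95 ± 1.82, 2.39 ± 1.77, 1.77 ± 1.78 and 1.63 ± 1.49, all with an edgeR adjusted p of 1. The 2 members not highest there were Irf1, at 439 CPM against 205 to 1113 CPM, and Ly6e, a membrane protein of the Ly6 family, at 744 CPM against 417 to 883 CPM.

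In the other 6 exposed lung libraries most members were below both controls, except in Brx07 replicate 1. That library had a median ratio to the control mean of 1.00, and the others had 0.656 to 0.793. Brx50 replicate 2 had 36 of 38 members below both lung controls (40.04% of all genes), Brx07 replicate 2 had 33 (37.0%), Brx50 replicate 1 had 31 (36.5%), Brx68 replicate 1 had 28 (37.0%) and Brx42 replicate 1 had 24 (44.0%). Brx07 replicate 1 had 15 members above (36.6% of genes) and 15 below (51.4%). Without Brx50 replicate 3, all 6 libraries were below both controls in 7 members, against 4.52% of all genes, and above both in 0 members, against 2.64%. Without it the fitted changes were -0.75 ± 0.36 for Rsad2, -0.56 ± 0.33 for Isg15 and 0.16 ± 0.48 for Gbp2, and none was called.

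The library that stood apart differed in its other transcripts as well. Its 6 endothelial markers summed to 161 CPM, against 1111 to 6134 CPM in the other lung libraries, with 5 of 6 below both controls (Cldn5, the other one, had 0 counts in all 30 libraries). Its 6 fibroblast markers summed to 254 CPM, against 1285 to 42064 CPM in the others. Its 4 alveolar and airway markers summed to 417 CPM, against 128 to 4363 CPM in the others, so 1 other lung library was lower. Its macrophage and monocyte markers summed to 4197 CPM, within the 3911 to 8350 CPM of the others. The 5 markers of plasmacytoid dendritic cells, known as strong producers of type I interferon, summed to 43.8 CPM there, with 3 of 5 above both controls, against 5.07 to 18.9 CPM in the others. In brain the same 5 markers summed to more, at 101 and 102 CPM in controls and 90.8 to 128 CPM in exposed libraries. They are thus not specific to these cells across tissues. The part of any of these cell types in the member levels was not tested.

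**Figure D5:**
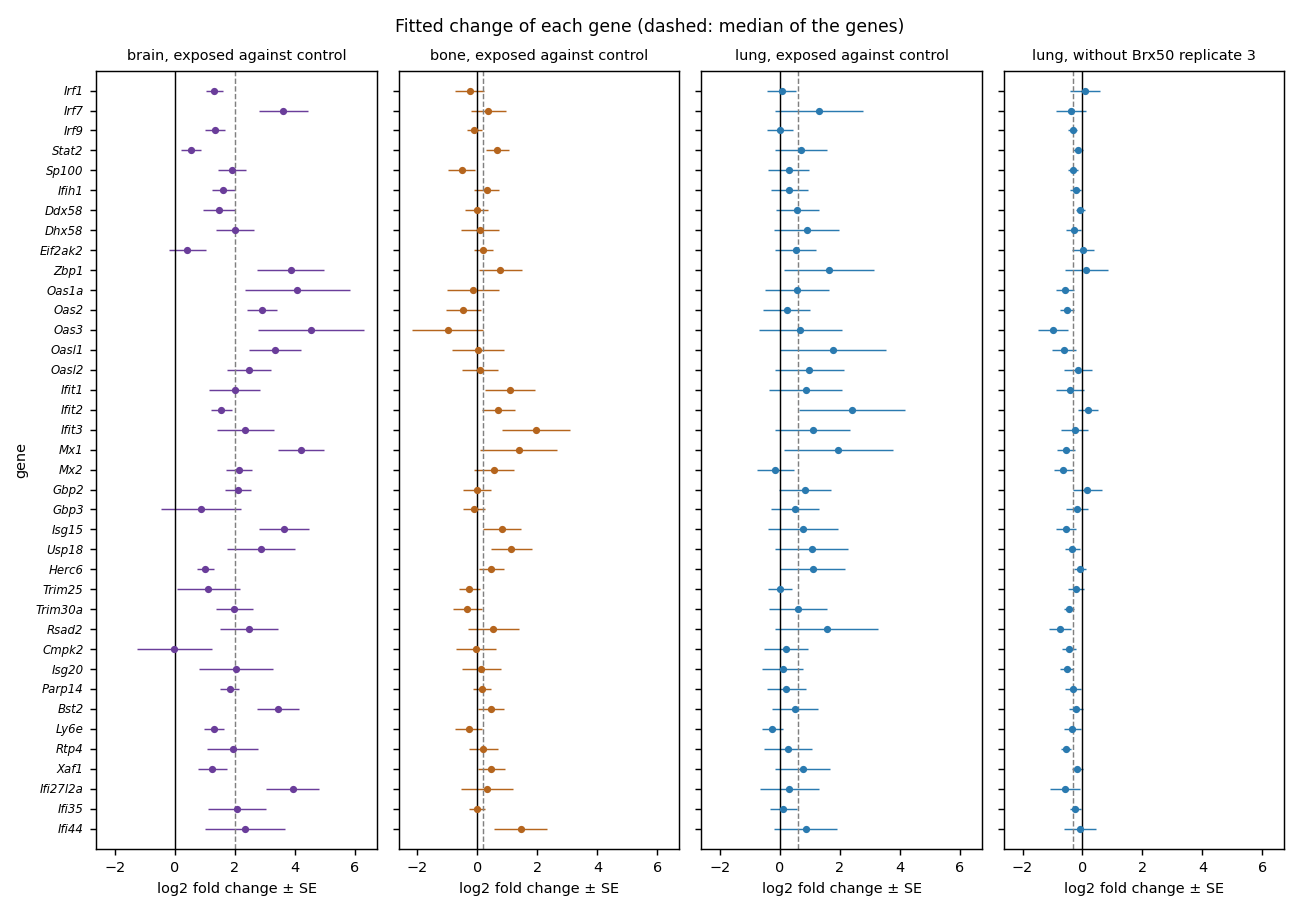
Fitted log2 fold change of each member with its standard error, exposed against control, in brain, bone, lung, and lung without Brx50 replicate 3; the dashed line is the median of the members. The median moves from 0.59 to -0.32 in lung when that library is left out, while in brain 37 of 38 points lie right of 0.

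The change with exposure was then compared between tissues. The members' change was larger in brain than in bone for 36 of 38 (42.7% of all genes), by a median of 1.70. It was larger in brain than in lung for 33 of 38 (44.5% of all genes), by a median of 1.503. Over all 21233 genes the medians were -0.18 and -0.12. edgeR called 0 members and 0 genes (0.0%) in both, with 13 members (8.34% of genes) and 6 members (3.95% of genes) at an unadjusted p under 0.05. limma-voom called 21 members larger in brain than in bone (4.54% of all genes) and 19 larger in brain than in lung (1.37%), and DESeq2 called 0 in both. The median for brain against lung was 2.67 with limma-voom. Both contrasts share the same brain libraries. Exposed brain held Brx50 alone, while exposed bone and lung pooled several lines. The mix of lines thus also differs between the tissues compared.

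The largest differences in brain against bone were in synthetases: Oas3 with 5.49 ± 2.67, Oas1a with 4.21 ± 1.92 and Oas2 with 3.34 ± 1.13, with Ifi27l2a at 3.58 ± 1.61. Against lung they were in Oas3 with 3.87 ± 2.70, Ifi27l2a with 3.63 ± 1.69, Oas1a with 3.54 ± 1.99 and Bst2 with 2.94 ± 1.02. In the brain controls Oas1a had 4 counts in each library and Oas3 had 3 and 7 counts. Both had 0 counts in brain Brx50 replicate 1, so both were near the floor in these brain libraries. Without lung Brx50 replicate 3, the brain change was larger than that of lung in 38 of 38 members, by a median of 2.38, with 25 at an unadjusted p under 0.05 (5.03% of genes) and 0 called. The lung change minus the bone change had a median of 0.28, with 29 of 38 above 0 (49.0% of all genes), and of -0.53 without lung Brx50 replicate 3, with 4 above 0. 0 members were called in either, and 0 (1.12% of genes) had an unadjusted p under 0.05 with all libraries. The largest differences of lung over bone, in Oasl1 (1.70 ± 1.68), Ifit2 (1.65 ± 1.35), Oas3 (1.63 ± 2.10) and Rsad2 (0.98 ± 1.65), all rested on that library, since each was below 0 without it.

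CTC lines could be compared within bone and within lung. In bone, 3 of 38 members were fitted higher with Brx68 than with Brx50 (46.9% of all genes), and the median was -0.67 against -0.04 over all 19211 genes. edgeR called 0 members and 0 genes (0.0%), with 8 members and 7.00% of genes at an unadjusted p under 0.05. limma-voom and DESeq2 also called 0 members. Every Brx68 library was below every Brx50 library in 1 member, Ifi35 (0.838% of genes), and above in 0 (0.0416% of genes). The largest differences were in Mx1 (-2.19 ± 0.89), Ifit3 (-2.05 ± 0.78), Oasl1 (-1.58 ± 0.76) and Oas3 (-1.39 ± 1.23). They rested in part on single libraries: without Brx50 replicate 2 Ifit3 was -1.33 and Oas3 -0.57, without Brx50 replicate 3 Mx1 was -1.26, and without Brx68 replicate 4 Oas3 was -2.20. For Ifit3 the 4 Brx50 libraries stood at 19.0, 177, 125 and 9.14 CPM and the 7 Brx68 libraries at 9.18 to 37.7 CPM, so replicates 2 and 3 of Brx50 were above the Brx68 range, replicate 1 was within it and replicate 4 was just below it. Against the controls, the median member change was 0.42 for Brx50 alone and -0.17 for Brx68 alone.

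In lung, 37 of 38 members were fitted higher with Brx50 than with Brx07 (50.5% of all genes), by a median of 1.37, and 11 of 38 without Brx50 replicate 3, by a median of -0.23. edgeR called 0 members in each and 0.0% of genes with all libraries. At an unadjusted p under 0.05 there were 1 member with all libraries (10.8% of genes) and 4 without it (14.8% of genes). limma-voom and DESeq2 called 0 members. The largest fitted differences were in Mx1 (3.86 ± 1.77), Oas3 (3.29 ± 1.37), Rsad2 (3.23 ± 1.76) and Oasl1 (3.06 ± 1.75). Without Brx50 replicate 3 they were 0.40, 1.03, -0.23 and -0.43. For Rsad2 the Brx50 libraries stood at 20.5, 33.3 and 714 CPM and the Brx07 libraries at 43.6 and 15.6 CPM, so apart from replicate 3 the lines overlapped.

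Some titles carry the same code, and no source used here explains it. Code 83.2 stands on bone Brx50 replicate 2, brain Brx50 replicate 3 and lung Brx50 replicate 3. Those libraries had 32, 38 and 36 of 38 members above all controls of their tissue, against 37.0%, 44.2% and 36.1% of all genes, with median ratios to the control mean of 1.96, 6.16 and 4.93. Code 84.2 stands on bone Brx50 replicate 3, bone Brx68 replicate 6 and lung Brx50 replicate 1, with 28, 19 and 0 members above all controls (35.8%, 33.9% and 38.99% of genes). Code 48.1 stands on brain Brx50 replicate 1 and lung Brx50 replicate 2, with 23 and 0 members above (41.1% and 33.1% of genes). Code 99.2 stands on bone Brx68 replicate 7 and lung Brx68 replicate 1, with 2 and 1 members above (46.6% and 34.3% of genes). Code 2.1 stands on both bone Brx07 libraries, replicate 1 from leg and replicate 2 from skull per their titles, which were counted as 2 libraries and had 21 and 32 members above (35.5% and 52.6% of genes). So the lung library with the most members above controls shares a code with 1 of the 2 brain libraries that had all 38 above, while the libraries of code 84.2 differed from each other.

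Other genes of the pathway were read from lists of ligands, receptors, signalling proteins, sensors and further induced genes, of which 105 genes had a row and Gbp6 had none. Most ligands had few counts. Of 21 interferon genes, 8 had 0 counts in every library, and Ifnb1 reached 13 counts at most, in bone Brx07 replicate 2 (1.27 CPM). In lung Brx50 replicate 3 Ifnb1 had 4 counts, against 5 and 8 counts in the lung controls, too few to tell apart at this depth. Ifng had counts in 1 library, brain Brx50 replicate 3, at 0.317 CPM from 2 counts. Ifnk, an interferon of skin keratinocytes, was the ligand counted in most libraries (27), and it was lower in control bone than in control brain (log2 difference -2.02 ± 0.76, edgeR adjusted p = 0.0285). It also had the highest count of any ligand, 62 counts in brain Brx50 replicate 2 (6.40 CPM). Ifne had counts in 4 libraries and reached 41 counts in bone Brx68 replicate 1 (5.34 CPM).

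Receptor and signal genes were expressed in every tissue. Ifnar1, a chain of the type I receptor, stood at 105, 127 and 97.1 CPM in exposed brain and 67.3 and 70.5 CPM in brain controls, a fitted change of 0.61 ± 0.21 (edgeR adjusted p = 0.320). Cxcl10, a chemokine induced by both interferon types, stood at 2.56, 14.7 and 23.4 CPM against 0.638 and 1.47 CPM, a change of 3.60 ± 1.05 (edgeR adjusted p = 0.287). In both genes every exposed brain library was above both controls and neither passed the test. In lung Brx50 replicate 3, Ifnar1 stood at 431 CPM against 117 to 162 CPM in the other lung libraries, above all of them. Cxcl10 stood at 48.2 CPM there, within the 11.4 to 93.2 CPM of the others.

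None of the pathway lists had a gene called between exposed and control tissue in brain, bone or lung. In brain 6 of 6 receptors, 5 of 8 signalling genes, 12 of 12 sensors and adaptors and 44 of 46 further induced genes were fitted higher, with medians of 1.13, 1.01, 1.38 and 1.73. In bone the counts were 0 of 6, 2 of 8, 5 of 12 and 28 of 55, and in lung 4 of 6, 6 of 8, 8 of 12 and 42 of 56. Of all genes, 51.6% were fitted higher in brain, 57.2% in bone and 61.2% in lung. Between control tissues, 51 of 55 further induced genes were called higher in bone than in brain, 53 of 55 higher in lung than in brain, and 34 of 55 lower in bone than in lung, with 4 higher. Of all genes, 37.0% were called higher in bone than in brain and 34.6% higher in lung than in brain. For bone against lung, 22.3% of all genes were called lower and 22.5% higher. Receptors were called higher than in brain in 6 of 6 genes in both tissues, led by Ifnlr1 in bone (5.31 ± 0.26) and Il10rb in lung (3.24 ± 0.19). Tlr7, a sensor of single-stranded RNA in endosomes, was lower in control bone than in control lung (log2 difference -3.05 ± 0.19, edgeR adjusted p = 1.23e-07), while Ikbke, a kinase that activates Irf3 and Irf7, was higher (1.59 ± 0.13, edgeR adjusted p = 1.09e-06).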

How the data were processed

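RNA sequencing of 30 sorted stromal libraries was used. The values are raw read counts as the authors deposited them, in 1 table of 43346 mouse gene IDs by 30 libraries. STAR 2.5.2b and HTSeq are listed, with the mouse builds GRCm38.p5 and mm10 and the human builds GRCh37 and hg19, all without a role, per the submitters' processing notes. No source used here gives the annotation, the strand setting or the way human reads were removed, so reads of overlapping or antisense genes (Irf7 with Phrf1, Irf9 with Rnf31) cannot be told apart. Near-identical copies (Ifit3 and Ifit3b, Oas1a and its tandem copies, Trim30a, the Gbp and Mx families) are uncertain. Symbols, coordinates and exon lengths came from GENCODE M21 (GRCm38).

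The test was edgeR's quasi-likelihood F-test (two-sided, version 4.0.16, R 4.3.3), with TMM scaling, a robust dispersion, filterByExpr and p-values adjusted over all genes by Benjamini-Hochberg. The threshold was an adjusted p of 0.05. Each SE given with an edgeR change is the absolute log2 change divided by the square root of its F statistic. It is thus derived from the test and only approximate, above all for genes with 0 counts in a library. The 3 tissues were fitted separately with lines pooled, and differences between tissues in 1 fit of all 30 libraries. Control tissues were compared in a fit of the 7 controls. The bone line comparison was fitted on all bone libraries, grouped by line, with the controls as a further group. The lung line comparison was fitted on the Brx07, Brx50 and control libraries only. The control libraries therefore share in the spread behind both line comparisons. The script was tested on simulated data. All 38 members passed the filter on low counts in all 11 comparisons. Totals ran from 4289012 to 15646947 counts, and a count of 0 allows up to 3 counts, for counting error only. Libraries of one group all differed by more than sampling noise (smallest chi-square per degree of freedom 9.64). Alternatives were RLE and upper quartile scaling, no filter, limma-voom with quality weights (limma 3.58.1), DESeq2 1.42.0, each library left out, lines alone, a fit of all libraries, a fit of the 2 groups compared, and a replicate block for controls. A further 2 settings without lung Brx50 replicate 3 were added after the data were seen.

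Members and lists were chosen with earlier results of these data known. Named in each comparison were called members (all up to 8, otherwise the 4 largest by fold each way), the 4 with the largest fold among those averaging 10 CPM or more, and in each tissue Irf7, Ifih1, Oasl2, Ifit3, Gbp2, Isg15, Rsad2 and Bst2. Other members named were chosen after their values were seen.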

Additional observations from a re-analysis of the deposited data

Results flagged for a closer look

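In groups of 4 to 10 libraries, the highest or lowest value was set apart where its gap to the next, divided by the range of the group, passed the 95% limit of Dixon's test for that number of libraries. Chance passes it in about 1 in 20 groups where values are normally distributed, which CPM need not be. Of 27 group values tested, 11 were set apart. Among the 7 exposed lung libraries, Brx50 replicate 3 was set apart in the sum of the 38 members, with a ratio of 0.928 (14664 CPM, next 3724 CPM). It was also set apart in each of the 8 members followed in every tissue, with ratios of 0.886 for Irf7, 0.842 for Ifih1, 0.808 for Oasl2, 0.861 for Ifit3, 0.707 for Gbp2, 0.897 for Isg15, 0.96 for Rsad2 and 0.858 for Bst2. These 9 values come from 1 library and are not independent of each other.

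Among the 7 bone Brx68 libraries, replicate 2 was set apart for Isg15, with a ratio of 0.68 (119 CPM, next 49.2 CPM). Replicate 5 was set apart for Rsad2, with a ratio of 0.874 (345 CPM, next 51.7 CPM).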

How the results depend on the processing

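The number of members called was within 1.5 times of the main count except in the following cases, whose cause was not tested. In exposed brain it was 0 in the main fit, 7 without a filter on low counts, 25 with limma-voom and 18 with DESeq2, and 0 to 11 with 1 library left out, the 11 without Brx50 replicate 1. In exposed bone limma-voom called 2. For the brain change minus that of bone and of lung, limma-voom called 21 and 19, and it moved the median for brain minus lung from 1.503 to 2.67.

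The median member change turned in bone with limma-voom (-0.051) and with Brx68 alone (-0.17). In lung it turned with limma-voom (-0.38), DESeq2 (-0.16) and Brx50 alone without replicate 3 (-0.45), and ran from -0.32 to 0.74 with 1 library left out. For lung minus bone it was -0.39 with limma-voom, -0.84 with Brx50 alone without lung replicate 3, and -0.37 without that library and bone Brx07 replicate 2, and ran from -0.53 to 0.42 with 1 library left out. For lung Brx50 against Brx07 it was -0.099 with limma-voom and ran from -0.23 to 1.81. Each lowest value in lung was the one without Brx50 replicate 3.

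Of the single genes in bone, Brx68 alone gave Mx1 -0.40, Irf7 -0.27, Ifih1 -0.29, Oasl2 -0.60 and Gbp2 0.19, and limma-voom gave Oasl2 -0.27 and Rsad2 -0.067. Gbp2 was 0.063 with RLE scaling and DESeq2, 0.12 with upper quartile scaling and 0.0097 in the fit of all libraries. With 1 library left out, Oasl2 ran from -0.13 to 0.24 and Gbp2 from -0.18 to 0.074.

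In lung, limma-voom gave Ifit2 -0.075, Mx1 -0.42, Oasl1 -0.80, Zbp1 -0.34, Irf7 -0.61, Ifih1 -0.32, Oasl2 -0.45, Ifit3 -0.58, Gbp2 -0.31, Isg15 -0.78, Rsad2 -0.91 and Bst2 -0.20. DESeq2 gave Mx1 -0.49, Oasl1 -0.55, Irf7 -0.33, Ifit3 -0.20, Isg15 -0.50, Rsad2 -0.68 and Bst2 -0.18. Brx50 alone without replicate 3 gave Ifit2 -0.093, Mx1 -0.44, Oasl1 -0.68, Zbp1 -0.32, Irf7 -0.69, Ifih1 -0.45, Oasl2 -0.48, Ifit3 -0.76, Gbp2 -0.65, Isg15 -0.69, Rsad2 -0.85 and Bst2 -0.20. With 1 library left out the ranges were -0.54 to 2.15 for Mx1, -0.61 to 1.97 for Oasl1, -0.39 to 1.495 for Irf7, -0.22 to 0.40 for Ifih1, -0.15 to 1.15 for Oasl2, -0.25 to 1.34 for Ifit3, -0.56 to 0.93 for Isg15, -0.75 to 1.77 for Rsad2 and -0.22 to 0.63 for Bst2.

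For lung minus bone, limma-voom gave Oasl1 -0.37, Ifit2 -0.55 and Rsad2 -0.80, and DESeq2 gave Ifit2 -0.56. Brx50 alone without lung replicate 3 gave Oasl1 -1.39, Ifit2 -0.996, Oas3 -0.078 and Rsad2 -1.35. Without that library and bone Brx07 replicate 2 the values were Oasl1 -0.56, Ifit2 -0.28, Oas3 -0.040 and Rsad2 -1.23. With 1 library left out the ranges were -0.65 to 1.90 for Oasl1, -0.53 to 1.84 for Ifit2, -0.019 to 1.91 for Oas3 and -1.31 to 1.32 for Rsad2. For lung Brx50 against Brx07 they were -0.23 to 4.29 for Rsad2 and -0.43 to 4.20 for Oasl1.

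Control tissues share replicate numbers in the labels. Same-numbered controls did not deviate together (Pearson r over genes -0.081 to 0.020), so the numbers were not taken to pair samples. The brain control columns are numbered 2 and 3 in the count table where the titles have 1 and 2, and by the column numbers r was 0.0050 to 0.081 with brain, which is no pairing either. With a replicate block, 26, 38 and 38 members were called for bone against lung, bone against brain and lung against brain. In the main fit they were 24, 38 and 38. There 44.8%, 75.8% and 72.0% of all genes were called in either direction. The share of all genes called with the block is not given here. With 2 or 3 controls per tissue, and 1 exposed library for Brx42 and for Brx68 in lung, the spread of a group rests on few libraries.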
